A study of Mus musculus with 9 samples.

Results

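Rab GTPases, the clathrin coat with its AP2 adaptor, the dynamins and the flotillins move membrane and cargo between the surface of a cell and its inner compartments. The genes were taken by name from the array: every non-control probe annotated to a numbered Rab gene, to Clta, Cltb or Cltc, to the AP2 subunit genes Ap2a1, Ap2a2, Ap2b1, Ap2m1 or Ap2s1, to Dnm1, Dnm2 or Dnm3, or to Flot1 or Flot2. The rule found 144 of 56605 probes, for 72 genes, of which 59 are Rab genes. Tests were made on the 68 genes that had a probe clear of background throughout at least 1 group of 3 arrays, among 23964 such genes on the whole array. The other 4, Rab9b, Rab25, Rab26 and Rab39b, had no such probe.

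Hepatic stellate cells are the pericytes of the liver that store retinoid, and in culture they turn into contractile, collagen-making myofibroblasts. The 9 single-colour Agilent arrays held 3 groups of 3, all of primary cells from C57BL/6 mice of 10 weeks isolated by collagenase perfusion: activated cells given an siRNA against Cav1 (Cav1 siRNA cells), activated cells given a negative control siRNA (control siRNA cells), and quiescent cells. Both siRNAs were given at 5 nM overnight after 7 days on hard plates, so activated cells of both groups had been cultured and transfected. The quiescent cells carry no treatment in the labels, which give no time of harvest for them. Since no label tells whether samples were separate animals or cultures, the p-values cover the spread among these samples and nothing wider. Cav1 encodes caveolin-1, the main coat protein of caveolae, surface pits that form without clathrin.

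A Rab protein is a switch: exchange factors load it with GTP, GTPase-activating proteins of the TBC family turn it off, and in between it recruits effectors such as motors and tethers to the membrane of a given compartment. Its tail carries lipid groups, and GDI proteins lift the inactive form off the membrane and return it. In the clathrin route, AP2 binds cargo and lipid at the plasma membrane, clathrin heavy and light chains assemble over it, and dynamin cuts the neck of the pit. Flotillins form patches at the membrane that work apart from clathrin.

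The Rab family is defined by short boxes that bind the nucleotide. Examples from 3 genes are given, where the array's own probe reads a box in an open frame of the coding sequence. The 3 genes are a selection and not a count of all Rab genes with such a probe. The boxes are shown because they are the shared core of the family. Capitals mark the codons of the box, on the probe's own strand and with mm9 positions of the probe: the G3 box in Rab4b (chr7:27959796-27960855), the G4 box in Rab2b (chr14:52885946-52888345) and the G5 box in Rab8a (chr8:74700227-74700286). The first pair of probes spans a splice junction, so their positions cover an intron.
Rab4b: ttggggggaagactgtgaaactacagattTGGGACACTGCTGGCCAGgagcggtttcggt
Rab2b: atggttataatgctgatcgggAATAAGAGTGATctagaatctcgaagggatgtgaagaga
Rab8a: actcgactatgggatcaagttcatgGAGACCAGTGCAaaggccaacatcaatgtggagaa
Between control siRNA and quiescent cells the log2 change was +0.36 for the Rab4b probe (adjusted p = 0.095), +2.17 for the Rab2b probe (adjusted p = 9.8e-05) and -0.24 for the Rab8a probe (adjusted p = 0.25). The Rab2b probe thus passed the test and the other 2 did not.

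Levels are given as log2 signal relative to the 75th percentile of the same array, so 0 is a bright gene and -6 is close to background. On this scale 57 of the 68 genes were above background on all 9 arrays. The median SD of these 68 genes was 0.08 in Cav1 siRNA cells, 0.11 in control siRNA cells and 0.25 in quiescent cells (n = 3 arrays each). Quiescent array 2 stood apart: it correlated with the other quiescent arrays at 0.97 across genes, against 0.984 between those 2, and had 51.5% of probes above background, against 58.1 and 58.4%. Markers of several other liver cells were high on the quiescent arrays, and the summed signals of some other marker lists were high on the activated ones. Summed linear signals, in units of the array's 75th percentile, were 1.41 to 1.51 in Cav1 siRNA cells, 1.35 to 1.54 in control siRNA cells and 1570 to 1880 in quiescent cells for 15 hepatocyte genes. For 13 macrophage genes they were 30.4 to 32.7 in Cav1 siRNA cells, 33.4 to 37.2 in control siRNA cells and 369 to 620 in quiescent cells. For 12 sinusoidal endothelial genes they were 1.76 to 2.18 in Cav1 siRNA cells, 3.17 to 3.54 in control siRNA cells and 438 to 738 in quiescent cells. The sums ran the other way for 10 genes of mesothelial cells or portal fibroblasts, at 245 to 258 in Cav1 siRNA cells, 240 to 258 in control siRNA cells and 47.8 to 68.6 in quiescent cells. They also did so for 6 cholangiocyte genes, at 25 to 27.9 in Cav1 siRNA cells, 27.4 to 33.2 in control siRNA cells and 2.57 to 6.58 in quiescent cells. Of these lists 7 and 2 genes were called higher and 3 and 3 lower in control siRNA than in quiescent cells, with median log2 changes of 3.26 and -0.29. Spp1 is in both the cholangiocyte list and the list of activation markers, so the cholangiocyte sum is not independent of activation markers. Between control siRNA and quiescent cells all 15, all 13 and all 12 of the hepatocyte, macrophage and endothelial genes were called lower, as were 12 of 13 lymphocyte or neutrophil genes and 4 of 4 erythroid genes, while 9 of 10 activation markers were called higher. Apoa1 of hepatocytes and Clec4f and Vsig4 of Kupffer cells were not well above background on any control siRNA array. Of 9 quiescent stellate markers tested, 5 were lower in control siRNA cells, 1 higher and 3 not called, and their sums overlapped, at 113 to 115 in Cav1 siRNA cells, 115 to 126 in control siRNA cells and 64.3 to 162 in quiescent cells. Lrat, the retinol-esterifying enzyme, was at least 104-fold lower in control siRNA than in quiescent cells, while the growth factor receptor gene Pdgfrb rose by +4.51 (adjusted p = 4.5e-05). The part of these cells in the changes below was not tested, and in bulk RNA fewer cells of a type and less RNA per cell cannot be told apart.

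The first comparison, of control siRNA cells with quiescent cells, asks how the transport machinery differed after activation in culture. Dnm1, a dynamin that cuts vesicles from the membrane, rose 162-fold, Rab34, which positions lysosomes, 22.6-fold, and the flotillin gene Flot1 3.73-fold. Rab37, a gene of secretory granules, fell 10.1-fold, and Rab17, of epithelial transcytosis, was at least 92.4-fold lower without normexp background correction. The clathrin chains moved less, with log2 changes between -0.74 and +0.43. Of the 68 genes, 28 were called higher in control siRNA cells, where 42.1% of all genes tested were, and 18 were called lower, where 26.0% of all genes were. The members' own shares were 41.2 and 26.5%, each close to that of the array as a whole. Their median log2 change was 0.21, beside 0.32 over all genes. With a log2 change of at least 1 as well, 18 were called higher (28.9% of all genes) and 13 lower (19.0% of all genes). The groups of arrays did not overlap for 29 genes that were higher in control siRNA cells and 21 that were lower, beside 42.8 and 27.0% of all genes. The 55 Rab genes divided into 21 higher, 16 lower and 18 not called, and the 13 genes of coat, fission and flotillins into 7 higher, 2 lower and 4 not called.

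**Figure D1:**
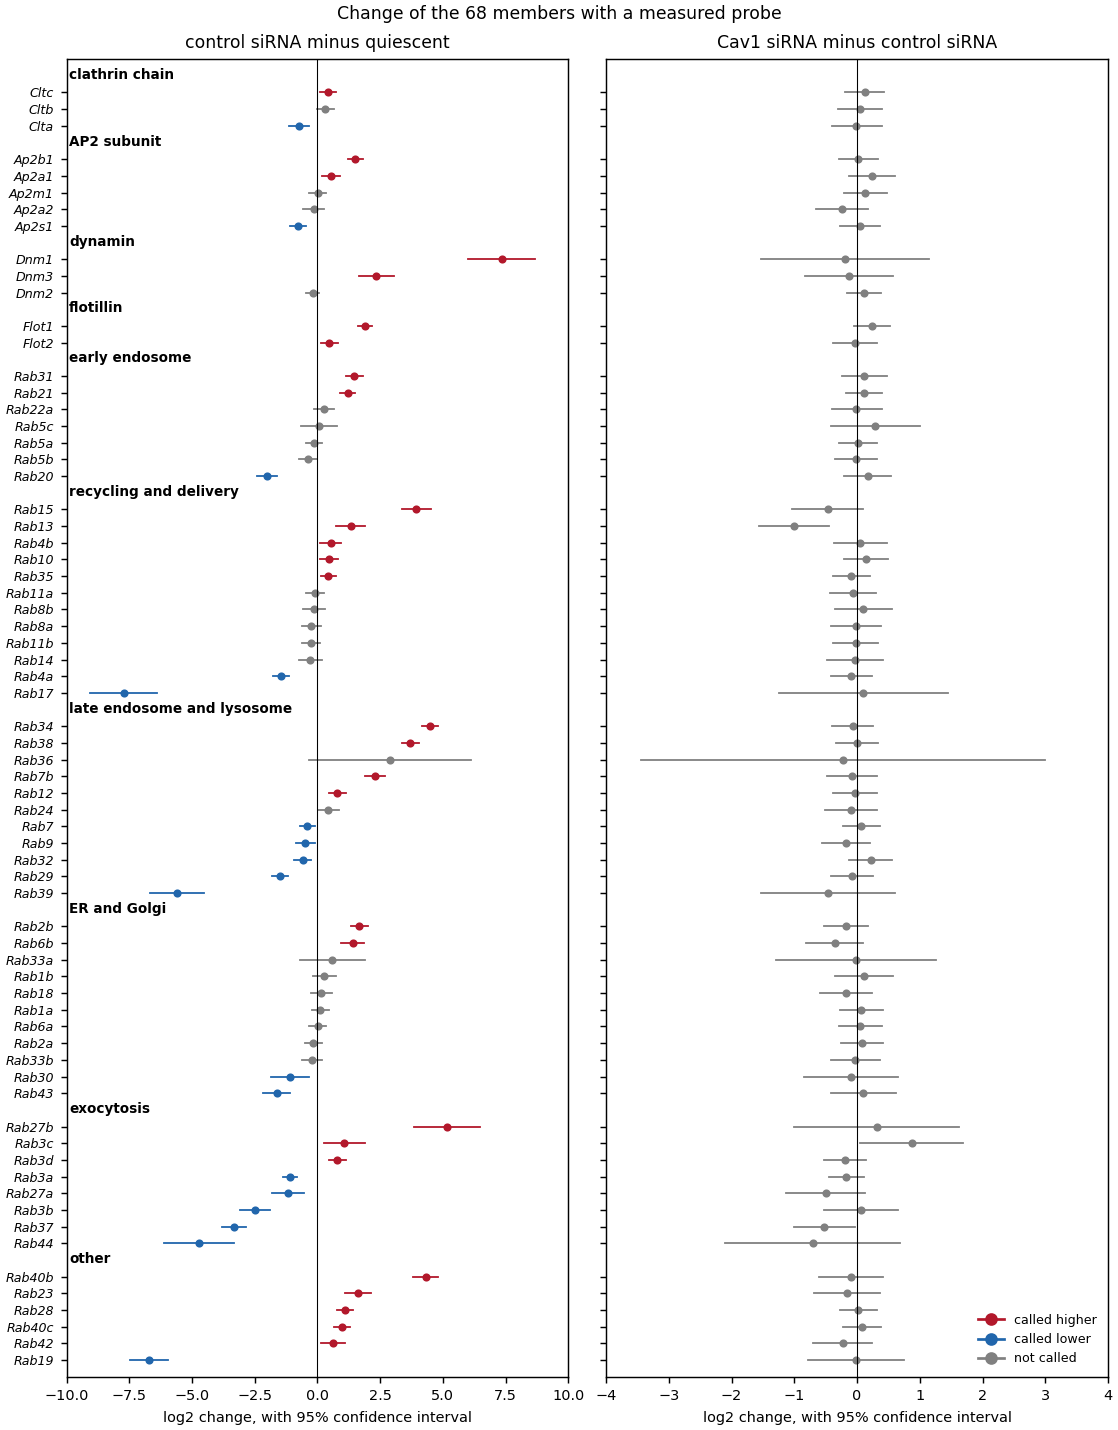
Log2 change (horizontal axes, with 95% confidence intervals) of the 68 genes, grouped by the step of transport they are best known for, for control siRNA minus quiescent cells on the left and Cav1 siRNA minus control siRNA cells on the right, with a narrower axis. On the left 28 genes are called higher and 18 lower, and most groups hold both. On the right no gene is called.

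Apart from Ap2b1, the genes of the clathrin chains and AP2 subunits changed by less than 1 on the log2 scale. Cltc, the heavy chain (probe at chr11:86508202-86508261, mm9), had log2 signals of 5.41, 5.22 and 5.31 in Cav1 siRNA cells, 5.08, 5.29 and 5.22 in control siRNA cells, and 4.63, 4.76 and 4.91 in quiescent cells. All activated arrays lay above all quiescent arrays, and the change between control siRNA and quiescent cells was +0.43 (SE 0.14, adjusted p = 0.021). This call was lost in 6 of the 20 alternative fits, among them both that use the slide and those that leave out control siRNA array 2 (+0.38, adjusted p = 0.079) or array 3 (+0.42, adjusted p = 0.067), and a second Cltc probe gave +0.99.
The light chains went different ways. Clta had 5.63, 5.71 and 5.52 in Cav1 siRNA cells, 5.93, 5.43 and 5.50 in control siRNA cells, and 6.17, 6.41 and 6.5 in quiescent cells, and fell by 0.74 in control siRNA cells (SE 0.17, adjusted p = 0.0044), without overlap. Cltb had 4.36, 4.58 and 4.43 in Cav1 siRNA cells, 4.53, 4.35 and 4.35 in control siRNA cells, and 4.03, 3.89 and 4.34 in quiescent cells. Its change of +0.32 missed the threshold (95% confidence interval -0.03 to 0.68, adjusted p = 0.094).

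AP2 is built from 2 large chains, a medium and a small one, and its genes did not move as a unit. Ap2b1, the beta chain that binds clathrin, had 1.16, 1.28 and 1.13 in Cav1 siRNA cells, 1.2, 1.14 and 1.17 in control siRNA cells, and -0.18, -0.52 and -0.31 in quiescent cells. Its groups were well apart, with a rise of +1.51 in control siRNA cells (SE 0.14, adjusted p = 1e-05). Of the alternative alpha chains, Ap2a1 had 1.98, 2.13 and 2.20 in Cav1 siRNA cells, 1.85, 1.91 and 1.85 in control siRNA cells, and 1.61, 1.14 and 1.17 in quiescent cells, a rise of +0.56 (adjusted p = 0.012). Ap2a2 had 1.1, 1.23 and 1.14 in Cav1 siRNA cells, 1.42, 1.47 and 1.28 in control siRNA cells, and 1.25, 1.91 and 1.45 in quiescent cells, and its difference of -0.15 was within the spread (adjusted p = 0.48).
Ap2m1, the medium chain that reads tyrosine sorting signals, lay between 4.88 and 5.33 on all 9 arrays, with a change of +0.01 (95% confidence interval -0.32 to 0.35). The small chain gene Ap2s1 had 5.10, 5.18 and 5.09 in Cav1 siRNA cells, 5.18, 5.04 and 5.00 in control siRNA cells, and 5.94, 5.64 and 5.97 in quiescent cells. It fell by 0.78 in control siRNA cells (SE 0.14, adjusted p = 0.00096), with every quiescent array above every activated one.

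**Figure D2:**
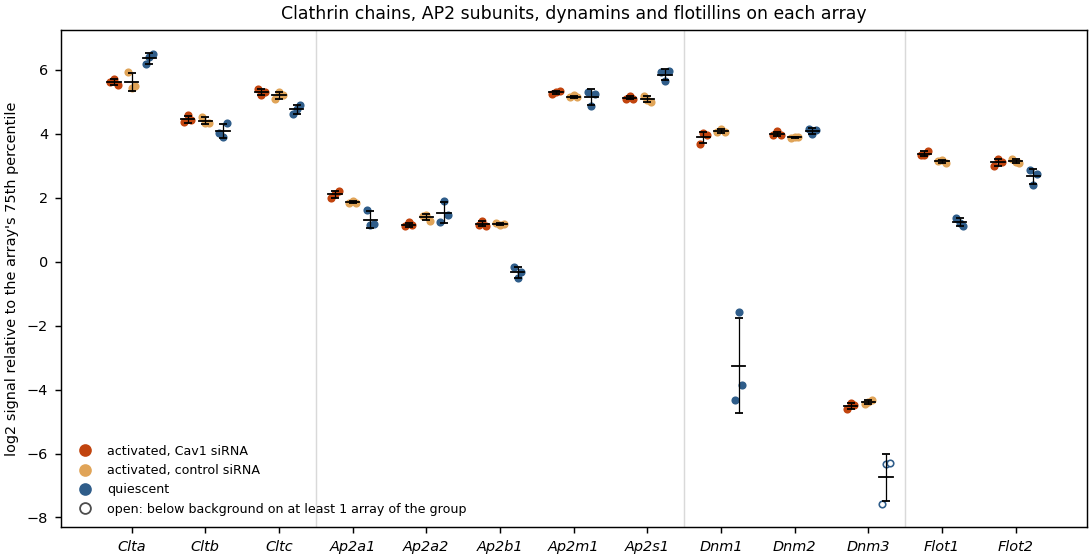
Log2 signal of each array relative to its 75th percentile (vertical axis) for the 13 genes of coat, fission and flotillins, with means and SD of 3 arrays. Dnm1 shows the widest gap between activated and quiescent arrays, Dnm2 and Ap2m1 lie level across the groups, and Dnm3 is below background in quiescent cells.

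The 3 dynamin genes differed among themselves. Dnm1, the form best known from nerve terminals (probe at chr2:32163995-32164054, mm9), had 3.67, 4.01 and 3.97 in Cav1 siRNA cells, 4.05, 4.16 and 4.05 in control siRNA cells, and -4.33, -1.57 and -3.85 in quiescent cells. It was bright on every activated array and dim on every quiescent one, with array 2 the least dim. The rise in control siRNA cells was +7.34 (SE 0.59, adjusted p = 4.6e-06), and +8.17 without quiescent array 2. A second Dnm1 probe, dimmer in activated cells, gave +1.09 (adjusted p = 0.00046), so the probes share the direction of the rise but not its size.
Dnm2, the dynamin of most tissues, had 3.95, 4.08 and 3.96 in Cav1 siRNA cells, 3.88, 3.90 and 3.89 in control siRNA cells, and 4.14, 3.99 and 4.12 in quiescent cells, a change of -0.19 (95% confidence interval -0.47 to 0.08, adjusted p = 0.18). Dnm3 was dim: -4.61, -4.43 and -4.49 in Cav1 siRNA cells, -4.44, -4.40 and -4.32 in control siRNA cells, and -7.59, -6.33 and -6.30 in quiescent cells, where it was not well above background on any array. It was at least 1.5-fold higher in control siRNA cells, but after normexp background correction the change was -0.14 (adjusted p = 0.38).

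The dynamin genes share a feature that their own probes do not read. In RefSeq (GRCm38.p6) each of the 3 spans a gene of the miR-199 family on the opposite strand, and Dnm3 spans miR-214 as well; 8 of the 72 genes had any mature miRNA inside them. The mature forms given there are shown with the seed, bases 2 to 8, in capitals. MiR-199b-3p, inside Dnm1 (chr2:32318524-32318545), has the same bases as miR-199a-3p, inside Dnm2 (chr9:21496498-21496519) and Dnm3 (chr1:162217883-162217904).
miR-199a-3p and miR-199b-3p: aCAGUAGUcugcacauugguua
miR-199a-5p: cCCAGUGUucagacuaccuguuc
miR-214-3p: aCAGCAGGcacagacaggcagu
miR-214-5p: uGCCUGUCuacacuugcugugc
The 4 sequences have 4 different seeds, and miR-199 genes of 3 loci share the first of them. The miRNAs themselves were not measured here. The long RNA that carries miR-199a-2 and miR-214, Dnm3os, runs opposite to Dnm3 (chr1:162217623-162225550, GRCm38.p6) and has a probe of its own. Dnm3os had log2 signals of 2.37, 2.32 and 2.28 in Cav1 siRNA cells, 2.17, 1.95 and 1.96 in control siRNA cells, and -6.32, -4.42 and -4.49 in quiescent cells, where 1 of 3 arrays was above background. Its change was +7.10 in control siRNA over quiescent cells (SE 0.44, adjusted p = 8e-07), +6.48 without quiescent array 1 and +4.57 after normexp correction, and it was +0.30 in Cav1 siRNA over control siRNA cells (95% confidence interval -0.70 to 1.29). The dim Dnm3 and the bright Dnm3os were thus both higher in activated cells, on opposite strands of 1 locus, although the direction of Dnm3 turned (-0.14) after normexp correction.

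Both flotillin genes were higher in activated cells. Flot1 (probe at chr17:35968052-35969510, mm9, across a splice junction) had 3.32, 3.35 and 3.46 in Cav1 siRNA cells, 3.14, 3.18 and 3.09 in control siRNA cells, and 1.38, 1.21 and 1.13 in quiescent cells. The 3 groups were separate, and the rise in control siRNA cells was +1.90, or 3.73-fold (SE 0.13, adjusted p = 1.4e-06), with +2.26 from a second probe. It was called in all 20 alternative fits, with values from 1.84 to 2.08.
Flot2, its partner in flotillin oligomers, had 2.99, 3.21 and 3.12 in Cav1 siRNA cells, 3.22, 3.11 and 3.10 in control siRNA cells, and 2.87, 2.41 and 2.73 in quiescent cells. The rise of +0.47 passed the test (SE 0.15, adjusted p = 0.022) and was lost in 6 of 20 alternatives, including those without control siRNA array 1, 2 or 3 (adjusted p of 0.062, 0.052 and 0.051). Over the 9 arrays the genes whose log2 signals followed Flot1 most closely were Mvk, Slc39a13 and Ptpn9 (Pearson r 0.9983, 0.9982 and 0.998), and those closest to Cltc among named genes were Zfp146 and Ccar1 (0.9921 and 0.986). These correlations describe 9 arrays that differ chiefly between quiescent and activated cells.

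Of the 7 Rab genes of the early endosome tested, 2 were called higher in control siRNA cells, 1 lower and 4 neither. Among the latter, Rab22a gave +0.26 by its brightest probe (adjusted p = 0.21), but +1.24 by a second probe (adjusted p = 6.9e-05). The mean of its kept probes gave +0.76 (adjusted p = 0.002). The 3 Rab5 genes, which govern fusion of early endosomes, were not called: changes were -0.14 for Rab5a, -0.37 for Rab5b (adjusted p = 0.053) and +0.07 for Rab5c. A Rab5b probe below background in quiescent cells gave +2.59, opposite to the gene's brightest probe. Rab31, which works between the Golgi and endosomes, had 1.63, 1.74 and 1.59 in Cav1 siRNA cells, 1.66, 1.55 and 1.42 in control siRNA cells, and 0.19, 0.22 and -0.20 in quiescent cells, a rise of +1.47 (SE 0.16, adjusted p = 3.1e-05). Rab21, known for carrying integrins, rose by +1.2 (adjusted p = 2.5e-05).
Rab20, known from phagosomes of macrophages, was the early endosome gene that fell. It had -2.70, -2.74 and -2.64 in Cav1 siRNA cells, -2.84, -2.79 and -2.94 in control siRNA cells, and -0.52, -0.91 and -1.12 in quiescent cells, a change of -2.01 (SE 0.17, adjusted p = 5.8e-06). The macrophage marker sums given above were lower on the same arrays, and their part in this fall was not tested.

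Recycling to and delivery at the plasma membrane was represented by 12 tested Rab genes, of which 5 were higher in control siRNA cells, 2 lower and 5 not called. The general recycling genes Rab11a and Rab11b and the delivery genes Rab8a, Rab8b and Rab14 had changes between -0.28 and -0.10, none called, although 6 kept probes of Rab14 ran from -1.5 to +1.47 and some were called in opposite directions. Rab15, described in neurons as a regulator of recycling, showed the widest rise of this group. It had -3.09, -2.96 and -3.02 in Cav1 siRNA cells, -2.28, -2.64 and -2.73 in control siRNA cells, and -6.56, -5.94 and -6.98 in quiescent cells, where it was not well above background. Rab15 was therefore at least 5.34-fold higher in control siRNA cells without normexp correction. With that correction the log2 change was +0.63, a smaller rise.
Rab13, a delivery gene known from cell junctions, had -1.11, -1.60 and -1.39 in Cav1 siRNA cells, -0.09, -0.45 and -0.53 in control siRNA cells, and -1.87, -1.16 and -2.00 in quiescent cells. Control siRNA arrays lay above both other groups, with +1.32 over quiescent cells (SE 0.25, adjusted p = 0.0012). Rab10 and Rab35 rose by +0.46 and +0.44 (adjusted p = 0.024 and 0.014), with the Rab10 call lost in 6 of 20 alternatives, among them those without control siRNA array 2 (+0.37, adjusted p = 0.099) or array 3 (+0.41, adjusted p = 0.09).
Rab17, an epithelial gene of transcytosis, ran the other way. It had -6.85, -6.45 and -8.4 in Cav1 siRNA cells and -6.56, -6.94 and -8.52 in control siRNA cells, not well above background on any of them, and 0.46, 0.05 and 0.64 in quiescent cells. The fall was at least 92.4-fold in control siRNA cells without normexp correction. It stood beside the fall of all 15 hepatocyte markers, whose part in it was not tested.

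The late endosome and lysosome group held 11 tested genes, of which 4 were higher in control siRNA cells, 5 lower and 2 not called. Rab34, which positions lysosomes and serves in building cilia (probe at chr11:78005615-78005674, mm9), had 5.45, 5.42 and 5.37 in Cav1 siRNA cells, 5.64, 5.43 and 5.39 in control siRNA cells, and 0.80, 1.01 and 1.15 in quiescent cells. This gap was 22.6-fold (log2 +4.50, SE 0.14, adjusted p = 1.4e-08), and it was +4.65 within the slide that held both groups. Rab38, known from melanosomes and other lysosome-related organelles, had 0.65, 0.72 and 0.67 in Cav1 siRNA cells, 0.72, 0.65 and 0.65 in control siRNA cells, and -2.93, -2.85 and -3.30 in quiescent cells. It rose by +3.70 (SE 0.15, adjusted p = 5.1e-08), whereas Rab32, its close relative on the same organelles, fell by 0.59 (adjusted p = 0.0072).
Rab7b, which returns cargo from endosomes to the Golgi, had 4.76, 4.90 and 4.83 in Cav1 siRNA cells, 4.90, 4.96 and 4.87 in control siRNA cells, and 2.88, 2.75 and 2.25 in quiescent cells. The rise was +2.29 (SE 0.18, adjusted p = 3.5e-06), with +2.51 from a second probe. Rab7, the main Rab of late endosomes, fell by 0.40 (adjusted p = 0.022) and Rab9, of the route from there to the Golgi, by 0.49 (adjusted p = 0.027), and these 2 calls were lost in 9 and 7 of 20 alternatives. Leaving out control siRNA array 2 or array 3 ended both, with adjusted p of 0.077 and 0.072 for Rab7 and of 0.079 and 0.081 for Rab9. Rab29, which works with the kinase LRRK2 at lysosomes, had 0.31, 0.56 and 0.36 in Cav1 siRNA cells, 0.64, 0.35 and 0.47 in control siRNA cells, and 1.96, 1.86 and 2.12 in quiescent cells, a change of -1.49 (adjusted p = 1.8e-05).
Rab39 had -7.91, -8.39 and -8.34 in Cav1 siRNA cells and -8.10, -8.52 and -6.61 in control siRNA cells, not well above background, and -2.18, -2.67 and -1.58 in quiescent cells. It was at least 16-fold lower in control siRNA cells without normexp correction. By its brightest probe Rab36 rested on 1 library: quiescent arrays gave -7.42, -1.09 and -7.15, so its change of +2.91 was not called (adjusted p = 0.097), while leaving out the second of them gave +4.98 (adjusted p = 4.5e-06). A dimmer Rab36 probe, above background on no quiescent array, gave +2.66 (adjusted p = 0.00024), and another gave +0.43 (adjusted p = 0.26). The mean of the gene's kept probes gave +2 (adjusted p = 0.006).

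Of 11 tested genes of transport through the endoplasmic reticulum and Golgi, 2 were higher in control siRNA cells, 2 lower and 7 not called. The housekeeping genes Rab1a, Rab1b, Rab2a and Rab6a and the lipid droplet gene Rab18 had changes between -0.16 and +0.27, none called. The second forms of 2 of them rose. Rab2b had 1.86, 1.97 and 1.90 in Cav1 siRNA cells, 2.30, 1.96 and 1.97 in control siRNA cells, and 0.23, 0.58 and 0.43 in quiescent cells, or +1.66 (SE 0.15, adjusted p = 1.2e-05). Rab6b, best known from neurons, had 1.49, 1.59 and 1.48 in Cav1 siRNA cells, 1.93, 1.95 and 1.78 in control siRNA cells, and 0.48, 0.89 and 0.08 in quiescent cells, or +1.40 (SE 0.20, adjusted p = 0.00021).
The Golgi genes Rab43 and Rab30 were lower. Rab43 had 3.73, 3.63 and 3.66 in Cav1 siRNA cells, 3.70, 3.54 and 3.47 in control siRNA cells, and 5.26, 4.67 and 5.65 in quiescent cells, a change of -1.63 (SE 0.23, adjusted p = 2e-04). Rab30 had -1.70, -1.81 and -1.83 in Cav1 siRNA cells, -1.60, -1.72 and -1.75 in control siRNA cells, and -1.49, 0.02 and -0.30 in quiescent cells. Quiescent array 1 lay close to the activated ones, and the change was -1.1 (SE 0.33, adjusted p = 0.015), or -0.96 without quiescent array 3 (adjusted p = 0.055).

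Of 8 tested genes of exocytosis, 3 were called higher and 5 lower in control siRNA cells, with the call of Rab3c resting on values near background. The Rab27 genes, which dock secretory granules and exosome-bearing endosomes, moved in opposite directions. Rab27b had 0.89, 0.82 and 1.1 in Cav1 siRNA cells, 0.12, 0.91 and 0.85 in control siRNA cells, and -4.07, -3.47 and -6.12 in quiescent cells, 2 of them above background. It rose by +5.18 (SE 0.58, adjusted p = 4.6e-05), with 3.15 to 5.72 over the alternative fits, and a second probe gave +4.35. Rab27a had -2.86, -2.98 and -3.38 in Cav1 siRNA cells, -2.5, -2.5 and -2.72 in control siRNA cells, and -1.58, -0.75 and -1.86 in quiescent cells, and fell by 1.18 (SE 0.28, adjusted p = 0.0044).
The Rab3 genes, which gate regulated secretion, also parted. Rab3b had -3.06, -2.70 and -2.91 in Cav1 siRNA cells, -2.81, -3.01 and -3.03 in control siRNA cells, and -0.57, 0.14 and -0.97 in quiescent cells, a fall of 2.48 on the log2 scale (SE 0.26, adjusted p = 2.9e-05). Rab3a fell by 1.09 (adjusted p = 5.2e-05) and Rab3d rose by +0.80 (adjusted p = 0.0011). Rab3c was called higher (+1.07, adjusted p = 0.026) from dim values, with 1 of 3 control siRNA arrays and no quiescent array above background, and after normexp correction it was -0.37 (adjusted p = 0.037). Its call was also lost without control siRNA array 1 or 3 (adjusted p = 0.076 and 0.084) and without quiescent array 1 or 3 (adjusted p = 0.09 and 0.091).
Rab37, a gene of secretory granules in mast cells, had -3.98, -3.91 and -4.01 in Cav1 siRNA cells, -3.48, -3.48 and -3.38 in control siRNA cells, and 0.41, -0.39 and -0.35 in quiescent cells. It fell by 3.34 on the log2 scale, or 10.1-fold (SE 0.21, adjusted p = 9.4e-07). Rab44, also described in mast cells, had -6.86, -8.29 and -8.31 in Cav1 siRNA cells, -8.09, -7.31 and -5.94 in control siRNA cells, and -2.60, -1.59 and -2.98 in quiescent cells. It was above background on no Cav1 siRNA array and 1 control siRNA array. It was at least 12.3-fold lower in Cav1 siRNA than in quiescent cells without normexp correction. Over the alternative fits that log2 change ran from -6.89 to -1.36, so the bound did not hold in all of them. The lymphocyte and neutrophil marker sums, 46.6 to 63.1 in Cav1 siRNA cells, 52.5 to 69.1 in control siRNA cells and 100 to 161 in quiescent cells, moved the same way as Rab37 and Rab44, and their part was not tested.

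Of the 6 remaining Rab genes, 5 were higher in control siRNA cells and 1 lower. Rab23, a regulator of Hedgehog signalling at the cilium, had -1.96, -1.66 and -1.5 in Cav1 siRNA cells, -1.75, -1.36 and -1.52 in control siRNA cells, and -2.81, -3.62 and -3.09 in quiescent cells, a rise of +1.63 (SE 0.23, adjusted p = 2e-04). Rab28, also known from cilia, rose by +1.1 (adjusted p = 7.1e-05). Rab40b, whose SOCS box ties it to ubiquitin ligases, had -0.86, -0.53 and -0.53 in Cav1 siRNA cells, -0.99, -0.28 and -0.37 in control siRNA cells, and -4.58, -5 and -5 in quiescent cells. It rose by +4.31 (SE 0.22, adjusted p = 2.6e-07), with 2 of 3 quiescent arrays above background, and Rab40c by +0.98 (adjusted p = 0.00015), against -0.69 from a dim Rab40c probe. Over the alternative fits the Rab40b rise ran from 2.23 to 4.54. Rab42 was called higher at +0.63 (adjusted p = 0.024), a call lost in 6 of 20 alternatives, with -0.11 after normexp correction. Without control siRNA array 1, control siRNA array 3 or quiescent array 1 its adjusted p was 0.074, 0.054 and 0.062.
Rab19 had -7.15, -6.61 and -7.11 in Cav1 siRNA cells and -6.60, -7.62 and -6.57 in control siRNA cells, not well above background, and 0.25, -0.21 and -0.70 in quiescent cells. It was at least 60.8-fold lower in control siRNA cells without normexp correction.

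Rab genes that carry the same number are close relatives, and 19 such pairs could be set against each other by the ratio of their signals on each array. In 7 of them 1 gene was called higher and the other lower: Rab27a with Rab27b, Rab4a with Rab4b, Rab7 with Rab7b, and Rab3a and Rab3b each with Rab3c, whose values are dim, and Rab3d. Of all genes tested, 42.1% were called higher and 26.0% lower, so opposite calls can also fall on unrelated genes. Their share over pairs of all genes was not computed. The Rab3 pairs share genes, and the calls of Rab7 and Rab4b were lost in some alternatives. An exact permutation test of 3 against 3 arrays cannot go below p = 0.1, so these ratios are given as ranges. The log2 ratio of Rab27a to Rab27b shifted by -6.36, with -3.56 to -2.62 in control siRNA cells and 2.5 to 4.26 in quiescent cells. For Rab7 to Rab7b it shifted by -2.68, with -1.54 to -1.37 in control siRNA cells and 0.97 to 1.75 in quiescent cells.
Rab4a, of fast recycling, had 0.36, 0.49 and 0.44 in Cav1 siRNA cells, 0.47, 0.62 and 0.47 in control siRNA cells, and 1.94, 1.80 and 2.18 in quiescent cells, and fell by 1.45 on the log2 scale (SE 0.14, adjusted p = 1.8e-05). Rab4b rose by +0.53 (adjusted p = 0.033), a call lost in 8 of 20 alternatives. Leaving out control siRNA array 1, 2 or 3 or Cav1 siRNA array 3 was enough (adjusted p = 0.056, 0.085, 0.084 and 0.053). The Rab4a to Rab4b ratio shifted by -1.98. In 2 more pairs, Rab2a with Rab2b and Rab6a with Rab6b, 1 gene was called and the other not, with shifts of -1.83 and -1.39. The pairs Rab1a and Rab1b, Rab8a and Rab8b, and Rab11a and Rab11b overlapped between groups, with shifts of -0.16, -0.10 and 0.16.

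**Figure D3:**
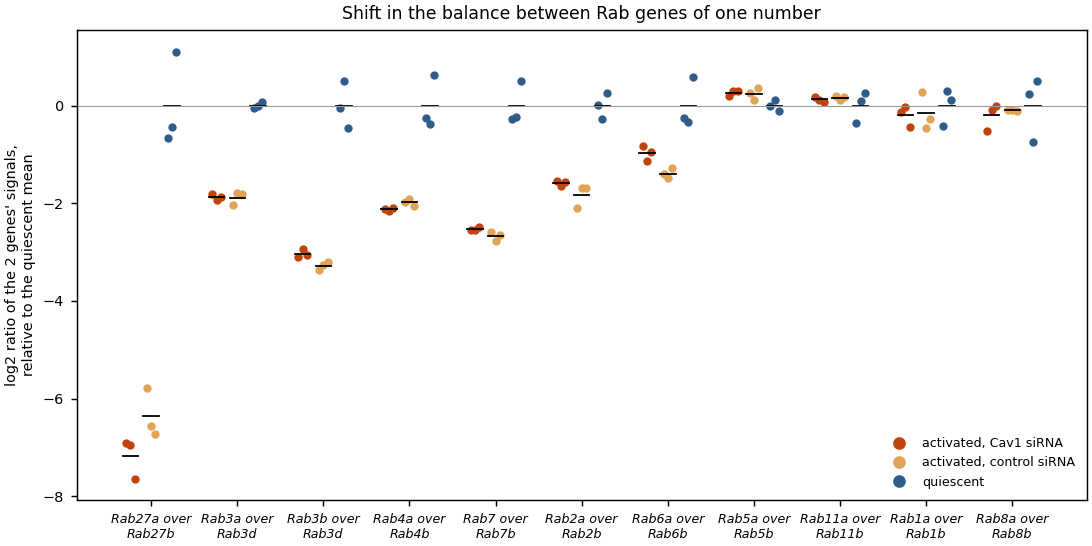
Log2 ratio of the signals of 2 Rab genes of one number on each array, relative to the mean of the quiescent arrays (vertical axis), with bars at group means, for 11 of the 19 pairs. The ratio of Rab27a to Rab27b is shifted by -6.36 in control siRNA cells, and the Rab1, Rab8 and Rab11 pairs overlap the quiescent arrays.

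Promoters were read for the 60 of 72 genes that RefSeq's promoter table (GRCm38.p6) held, as the 250 bases before each start, with 73 windows in all. Motifs were searched on both strands; each reads the same on both, and no window of these genes held both. TGANTCA, the site letters of AP-1 factors, occurred in 2 of 73 windows (2.74%), beside 6.75% of all 32851 windows, and CACGTG, the E-box letters read by MYC and TFEB, in 6 (8.22%), beside 6.02%. The genes with TGANTCA were Rab15 and Rab34, both among the higher calls. Those with CACGTG were Rab21 and Rab23, called higher, Rab20 and Rab27a, called lower, and Ap2m1 and Rab5a, not called. One window is shown for 4 of them, with the motif in capitals: Rab34 (chr11:78188177-78188426, plus strand), Rab15 (chr12:76818375-76818624, minus strand), Rab21 (chr10:115315592-115315841, minus strand) and Rab20 (chr8:11478641-11478890, minus strand).
Rab34: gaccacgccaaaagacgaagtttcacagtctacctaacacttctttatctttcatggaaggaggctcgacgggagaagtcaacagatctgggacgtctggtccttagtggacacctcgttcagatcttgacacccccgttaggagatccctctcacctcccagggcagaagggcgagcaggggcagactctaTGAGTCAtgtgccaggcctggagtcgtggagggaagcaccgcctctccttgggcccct
Rab15: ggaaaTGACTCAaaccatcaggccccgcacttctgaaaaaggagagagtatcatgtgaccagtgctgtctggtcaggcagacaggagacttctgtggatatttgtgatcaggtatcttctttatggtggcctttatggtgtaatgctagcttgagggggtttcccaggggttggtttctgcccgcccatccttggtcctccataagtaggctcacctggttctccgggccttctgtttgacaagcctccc
Rab21: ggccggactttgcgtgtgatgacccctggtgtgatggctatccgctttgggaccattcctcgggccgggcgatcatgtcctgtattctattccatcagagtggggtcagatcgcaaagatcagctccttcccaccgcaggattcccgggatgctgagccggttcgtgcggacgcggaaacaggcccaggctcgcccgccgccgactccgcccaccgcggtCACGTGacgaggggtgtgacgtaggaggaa
Rab20: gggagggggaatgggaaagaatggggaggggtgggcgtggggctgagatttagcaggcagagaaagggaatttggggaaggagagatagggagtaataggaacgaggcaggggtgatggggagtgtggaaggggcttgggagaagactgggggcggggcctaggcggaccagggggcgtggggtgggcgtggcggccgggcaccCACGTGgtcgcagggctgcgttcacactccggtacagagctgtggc
A match to these letters is a description of the sequence and not a bound site.

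The machinery that switches, carries and decodes Rab proteins was read from lists of genes outside the set. Of 38 exchange factors, 9 were higher and 18 lower in control siRNA cells, where 42.1 and 26.0% of all genes were. The same shares apply to the other lists. The exchange factors had a median log2 change of -0.38 beside 0.32 over all genes. Dennd2a rose by +1.95 (adjusted p = 0.00023), and Madd, an activator of Rab3 and Rab27 proteins, fell by 4.14 (adjusted p = 2.6e-07). Of 38 GTPase-activating proteins, 14 were higher and 8 lower, with a median of 0.11, and among those above background throughout the largest were Tbc1d19 at +2.70 and Sgsm2 at +1.94, and Tbc1d8 at -4.18 and Tbc1d10c at -3.26.
Of 7 genes for prenylation and recycling of Rab proteins, 2 were higher and 2 lower, among them the escort protein gene Chml at +1.54 and the transferase chains Rabggta at -1.37 and Rabggtb at -0.58. Of 44 effectors, 25 were higher and 11 lower, with a median of 0.64. Rab11fip5 rose by +4.46 and the myosin Myo5a by +4.09 (adjusted p = 3e-08 and 2.4e-08), while Rab11fip1 fell by 2.68 and Rph3al, an effector of Rab3 and Rab27, by 2.56 (adjusted p = 2.7e-06 and 1.2e-06).

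On the clathrin side, 9 of 41 adaptors and coat accessories were higher in control siRNA cells and 15 lower, with a median log2 change of -0.05. Ston1 rose by +3.91 and the AP1 chain Ap1s1 by +1.52, and Fcho1, a protein of early pits, and Arrb2, a beta-arrestin, changed by -4.82 and -3.98. Of 21 partners of dynamin in bending and fission, 9 were higher and 4 lower (median 0.36), with Synj2 at +2.30, cortactin gene Cttn at +2.04, Arhgap26 at -3.93 and Wasl at -0.77. Of 19 cargo receptors 7 were higher and 8 lower (median 0.07): the lipoprotein receptor Vldlr at +4.35 and Igf2r at +3.85, and Stab2 and Asgr2 at -9.02 and -8.54. Stab2 is a scavenger receptor of sinusoidal endothelium, itself among the endothelial markers, and Asgr2 is a hepatocyte receptor. The marker sums of both cell types were lower on the same arrays, and their part was not tested.
Of 10 genes of the caveolae coat, 7 were higher and 1 lower, with a median of 1.66. Cavin3 rose by +6.10 and Ehd2, which stabilises caveolae, by +5.61 (adjusted p = 5.8e-08 and 5.1e-08), and Pacsin3 fell by 1.41 (adjusted p = 0.00025). The clathrin chains, by comparison, had changes between -0.74 and +0.43.

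The second comparison, of Cav1 siRNA with control siRNA cells, asks what the siRNA did to these genes. Its target, Cav1, had log2 signals of -2.87, -2.89 and -3.07 in Cav1 siRNA cells, against -1.34, -1.12 and -1.09 in control siRNA cells, a change of -1.76 (95% confidence interval -2.31 to -1.22, adjusted p = 0.14). By limma, none of the 68 genes was called and 0% of all 23964 genes were, and none of the 68 was called under any alternative either. At an unadjusted p under 0.05 there were 3 of 68 genes (4.41%), beside 1189 (4.96%) of all genes. The median absolute log2 change was 0.10, and 58 of the 68 genes changed by less than 0.25. For 55 genes the 95% confidence interval lay within a 2-fold change either way. The other 13 were Dnm1, Rab3c, Rab5c, Rab13, Rab15, Rab17, Rab27a, Rab27b, Rab33a, Rab36, Rab37, Rab39 and Rab44. The spread of each gene came from all 9 arrays, so quiescent scatter widened some of these intervals. For Dnm1 the SD was 0.19 in Cav1 siRNA cells, 0.06 in control siRNA cells and 1.47 in quiescent cells. Cav1 itself was not called, so the lack of calls does not show that these genes were unchanged. The groups did not overlap for 8 genes that were higher in Cav1 siRNA cells and 9 that were lower, beside 8.61 and 14.0% of all genes.

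Rab13 came first by p-value among the genes' brightest probes. Its means were -1.37 ± 0.24 in Cav1 siRNA cells and -0.36 ± 0.24 in control siRNA cells (SD, n = 3 each), a change of -1.01 (95% confidence interval -1.57 to -0.45, unadjusted p = 0.0028, adjusted p = 0.59), lower on 3 of 3 arrays. Values over the fits ran from -1.14 to -0.79 with adjusted p from 0.12 to 1, and the second Rab13 probe gave -0.57. Rab37 was next at -0.52 (95% confidence interval -1 to -0.04, adjusted p = 0.96), again with 3 of 3 arrays below. Rab3c, above background on 3 of 3 Cav1 siRNA arrays and 1 of 3 control siRNA arrays, had -5.58, -5.23 and -5.23 in Cav1 siRNA cells, against -6.05, -6.67 and -5.94 in control siRNA cells, a change of +0.87 (adjusted p = 0.96).
Flot1 was higher on 3 of 3 Cav1 siRNA arrays, by +0.24 (95% confidence interval -0.05 to 0.53, unadjusted p = 0.095), and +0.32 by its second probe. Rab15 was lower by 0.47 on the log2 scale (95% confidence interval -1.04 to 0.10, unadjusted p = 0.095). The means of Cltc were 5.31 ± 0.09 in Cav1 siRNA cells and 5.20 ± 0.11 in control siRNA cells (SD, n = 3 each), and the confidence intervals of the 8 clathrin and AP2 genes all included 0. None of these 5 leading differences passed adjustment over all genes. They were ranked by the brightest probe of each gene. With all kept probes tested by limma, a dimmer Rab35 probe at -0.81 (adjusted p = 0.45) came ahead of the brightest Rab13 probe (adjusted p = 0.68). The brightest Rab35 probe gave -0.09.

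**Figure D4:**
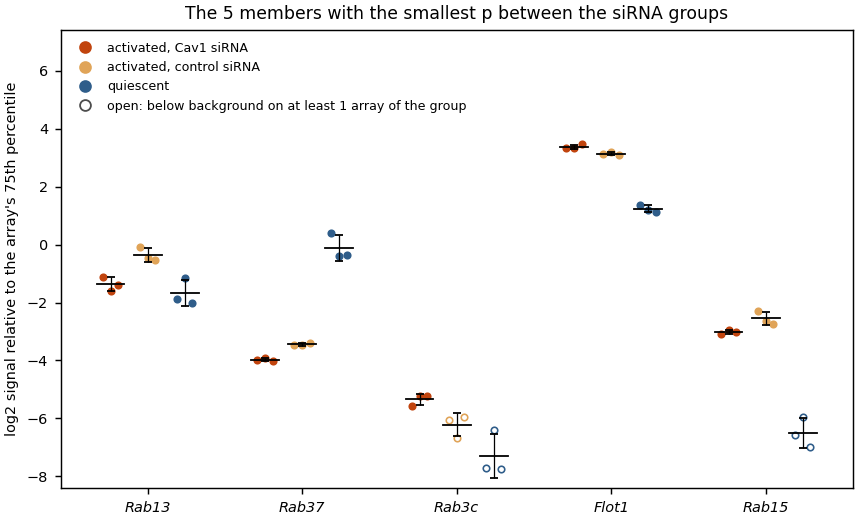
Log2 signal of each array relative to its 75th percentile (vertical axis), with means and SD of 3 arrays, for the 5 genes with the smallest p between Cav1 siRNA and control siRNA cells by their brightest probes. Rab13 averages -1.37 in Cav1 siRNA cells, -0.36 in control siRNA cells and -1.68 in quiescent cells, and none of the 5 differences passes adjustment.

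Cav1 siRNA cells set against quiescent cells, a comparison that shares its quiescent arrays with the first, gave 26 genes higher (40.4% of all genes) and 17 lower (27.2% of all genes). For the genes above, log2 changes were +7.13 for Dnm1, +5.49 for Rab27b, +4.42 for Rab34 and +2.14 for Flot1, and -2.42 for Rab3b and -3.85 for Rab37, in Cav1 siRNA over quiescent cells. Rab13 was not called there (+0.31, adjusted p = 0.29), but leaving out quiescent array 2 brought it among the calls (+0.57, adjusted p = 0.029). Rab5b was called lower (-0.39, adjusted p = 0.044), but in only 4 of 19 alternatives, with adjusted p = 0.36 when the slide was a block, and the mean of its probes gave +0.57 (adjusted p = 0.013). Every alternative without a single array other than quiescent array 2 ended the Rab5b call, with adjusted p between 0.054 and 0.12. Rab3c was called higher (+1.94, adjusted p = 0.0012) with no quiescent array above background, and was -0.21 after normexp correction (adjusted p = 0.21).

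The slides and the groups were partly confounded, since the quiescent arrays and control siRNA array 1 sat on 1 slide and the other arrays on a second. With the slide as a block 21 genes were higher and 13 lower between control siRNA and quiescent cells, and within the first slide, with 1 control siRNA array against 3, the counts were 13 and 9. That fit assumes that the lone array varies like the quiescent ones, so its values are given without a test: +7.30 for Dnm1, +4.65 for Rab34, +1.90 for Flot1 and -3.37 for Rab37. The block ended the calls of Ap2a1, Clta, Cltc, Flot2, Rab27a, Rab30 and Rab3c among the genes given on every array (adjusted p = 0.092, 0.11, 0.21, 0.073, 0.056, 0.13 and 0.09). Normexp correction made the changes of dim genes smaller: with percentile scaling they were +6.04 for Dnm1, +0.63 for Rab15, -3.61 for Rab17, -3.21 for Rab19, -1.98 for Rab39 and +0.8 for Rab23, all still called. For Rab15, Rab17, Rab19 and Rab39 these changes were smaller than the folds written "at least", which hold only without normexp correction. Rab44 in Cav1 siRNA over quiescent cells also had an alternative value, -1.36, smaller than its fold. Without quiescent array 2, Rab11b, Rab33a, Rab36, Rab5b and Rab8a joined the calls between control siRNA and quiescent cells.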

How the data were processed

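RNA of 9 samples was labelled with Cy3 and hybridised to 1 array each. Agilent Feature Extraction 10.7.1.1 made the deposited files, per the submitters' processing notes. The values used are the authors' deposited processed signals, a linear intensity per spot that is background-subtracted but not scaled between arrays, per the file headers, which also give probe positions on mm9.

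The signals were put on the log2 scale and reduced by the 75th percentile of their array, and spots were averaged per probe. Probes entered if, on every array of some group, 0.5 or more of their spots were flagged well above background; this left 36817 probes, and each gene was read from the brightest of its own. Comparisons came from limma 3.58.1 under R 4.3.3, with lmFit and eBayes over all 9 arrays, two-sided, Benjamini-Hochberg adjustment over 23964 genes and calls at an adjusted p under 0.05. The fit was tested on simulated data with the same spread in all groups and no background floor, so unequal spread and dim signals were not covered. Folds written "at least" set the higher group against the lowest signal flagged above background on the arrays of the lower one. They are bounds for the deposited processed signals and not for signals after normexp correction. The limma calls of these genes rest on values not well above background in the lower group and do not test the bounds.

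The genes, lists and roles were chosen with earlier results of these data known. Values on every array are given for the 13 genes that are not Rab genes, the called Rab genes with the 8 largest rises and 8 largest falls among those clear of background on all 6 arrays compared, Rab genes below background throughout 1 group and above it throughout another, and the 5 with the smallest p between siRNA groups; others were named by their role after their values were seen. Some genes of the pathway lists are not reported here by name. Samples were not treated as paired. Deviations of same-numbered arrays correlated between -0.11 and 0.17, and those of differently numbered arrays between -0.27 and 0.28. With 3 arrays per group this cannot tell whether equal replicate numbers pair samples. Other tools were Python 3.11.15, pandas 2.3.3, Biopython 1.88, matplotlib 3.10.9 and the R package data.table, version 1.17.8. The number of arrays limits precision, and for dim genes so does background.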

Additional observations from a re-analysis of the deposited data

How the results depend on the processing

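Counts of calls between control siRNA and quiescent cells stayed within 1.5 times of 28 higher and 18 lower under every other alternative run, including the replicate block (27 higher, 17 lower), except within 1 slide, which leaves 1 control siRNA array, assumed to vary like the quiescent ones, and gave 13 higher and 9 lower. With the replicate block, counts were 0 and 0 between the siRNA groups, and 24 higher and 16 lower between Cav1 siRNA and quiescent cells. In all alternatives 12 of the 28 higher and 9 of the 18 lower genes were called. Scaling moved the median change of all genes, which was 0.32 here, 0.47 with median scaling, -0.13 with normexp plus percentile scaling and 0.15 with normexp plus quantiles. Higher genes made up 61.8% of all calls here, 46.2% with normexp plus percentile scaling and 47% with no filter on dim probes.

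Between control siRNA and quiescent cells the direction of 16 genes turned under some alternative, of which 3 were called (Dnm3, Rab3c and Rab42). Between the siRNA groups 39 turned, none of them called, and between Cav1 siRNA and quiescent cells 18, of which 4 were called (Dnm3, Rab3c, Rab40c and Rab5b). Between control siRNA and quiescent cells, normexp plus percentile scaling gave -0.14 for Dnm3, -0.37 for Rab3c, -0.11 for Rab42 and -0.03 for Ap2m1, and normexp plus quantiles gave -0.38 for Ap2m1 (adjusted p = 0.018). Ap2m1 was -0.01 from the deposited table, with the slide as a block and within 1 slide, and leaving out single arrays moved it between -0.12 (without quiescent array 2) and 0.1. The mean of all probes gave 0.01 for Ap2a2 and for Dnm2, and Ap2a2 was 0.04 without quiescent array 2 and -0.29 without quiescent array 1. Rab3c between the siRNA groups was -0.01 with no filter. The causes were not tested.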
